A study of Mus musculus with 20 samples.

Results

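The genes described here encode the nuclear subunits of oxidative phosphorylation, measured in RNA of sorted mouse CD4 T cells. They were chosen by symbol. Members were all genes in the deposited RNA tables whose symbol begins with Nduf, Uqcr or Atp5, or with Cox followed by a digit of 4 to 8, together with Sdha, Sdhb, Sdhc and Sdhd. The rule found 90 of 22878 gene symbols. By name, 38 belong to complex I, 4 are complex I assembly factors (Ndufaf1 to Ndufaf4), 4 belong to complex II, 8 to complex III, 19 to complex IV and 17 to complex V. A name is not always a subunit. Cox4nb is listed in the RefSeq gene table as Emc8, a gene of the endoplasmic reticulum membrane complex, and Atp5s and Atp5sl are listed there as Dmac2l and Dmac2. Ndufa4 is now regarded as a partner of complex IV, and Cox7a2l as a supercomplex assembly factor. Each was kept in the complex its symbol gives.

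The study compared CD4 T cells by expression of T-bet, the transcription factor of T helper 1 cells. The spleen groups came from naive C57BL/6-background mice that carried a T-bet-ZsGreen-T2A-CreERT2 allele (ZTCE) together with Rosa26-loxP-STOP-loxP-tdTomato. All their cells were CD4+CD44highCD25- and carried tdTomato, the lasting mark left by Cre under T-bet control, and were sorted as ZsGreen+ or ZsGreen-, which reports T-bet expression at the time of the sort. CreERT2 is a form of Cre that needs tamoxifen, whose use the labels do not describe. The lymph node groups came from C57BL/6-background mice that carried T-bet-Cre together with Rosa26-loxP-STOP-loxP-tdTomato, 16 days after immunization with AS15 in CFA (complete Freund's adjuvant). Cells of the draining nodes that bound the AS15 tetramer were sorted as CXCR5highPD1high (Tfh, follicular helper T cells) or CXCR5lowPD1low (non-Tfh), each Tomato+ or Tomato-. Tomato marks present or past T-bet expression, so a Tomato+ cell need not express T-bet. The 6 groups of polyadenylated RNA held 2 libraries each. The labels give no age. They do not say whether the libraries of a group came from different mice, so the p-values measure the spread between these libraries, which may be technical.

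Oxidative phosphorylation is the chain of inner mitochondrial membrane complexes that turns NADH and succinate into ATP. Complex I (NADH dehydrogenase) and complex II (succinate dehydrogenase) feed electrons into ubiquinone, complex III (cytochrome bc1) passes them to cytochrome c, complex IV (cytochrome c oxidase) gives them to oxygen, and complex V (ATP synthase) uses the resulting proton gradient. In T cells the pathway is known to serve resting and memory cells, while activated effector cells also rely on glycolysis. Some subunits have alternative forms made from separate genes, among them heart and muscle forms (Cox6a2, Cox7a1, Cox8b) and testis forms (Cox6b2, Cox7b2, Cox8c).

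Reads assigned to genes numbered 13169783 to 24174592 per library, with 15080 to 15326 genes detected in the spleen and 11154 to 11805 in the lymph node. The common biological coefficient of variation, the relative spread between replicates that edgeR estimates beyond counting error, was 0.0867 for the spleen fit and 0.908 for the lymph node fit. CD4 T cell markers (8 of 8 detected) summed to 2305 to 3893 RPKM in all 12 libraries. Other cell types' markers were present too. The neutrophil markers (8 genes) summed to 757 to 1168 RPKM in the spleen, whereas in the lymph node they stayed at or below 79.6 RPKM except in Tfh Tomato- replicate 2 (449 RPKM) and non-Tfh Tomato- replicate 2 (341 RPKM). RPKM, as the authors deposited it, is the read number scaled to transcript length and library size. In bulk RNA, fewer cells of a type and less RNA per cell cannot be told apart.

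The members made up a steady share of the transcriptome. They took 1.21% and 1.21% of gene reads in spleen ZsGreen+ libraries, against 1.19% and 1.24% in spleen ZsGreen- libraries. In Tfh the shares were 1.317% and 1.225% in Tomato+ libraries and 1.227% and 1.177% in Tomato- libraries. In non-Tfh they were 1.25% and 1.26% in Tomato+ libraries and 1.14% and 1.17% in Tomato- libraries. The shares of the groups overlapped in the spleen and in Tfh and did not overlap in non-Tfh.

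Most subunits were strongly expressed. Of the 90 members, 73 reached at least 10 RPKM in every spleen library and 70 did so in every lymph node library, while 6 stayed below 1 RPKM in every spleen library and 6 in every lymph node library. The 10 members with the highest mean RPKM (Cox4i1, Cox8a, Atp5e, Cox6a1, Atp5b, Cox6b1, Uqcr10, Atp5d, Ndufa2 and Ndufa3) held 37.1% to 41.2% of the members' summed RPKM in each library. Cox4i1, the regulatory subunit IV of cytochrome c oxidase, was the highest. It stood at 648 and 708 RPKM in spleen ZsGreen+ libraries, and at 675 and 715 RPKM in spleen ZsGreen- libraries. In the lymph node it stood at 775 and 593 RPKM in Tfh Tomato+, 548 and 595 in Tfh Tomato-, 675 and 628 in non-Tfh Tomato+, and 547 and 568 in non-Tfh Tomato-.

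**Figure D1:**
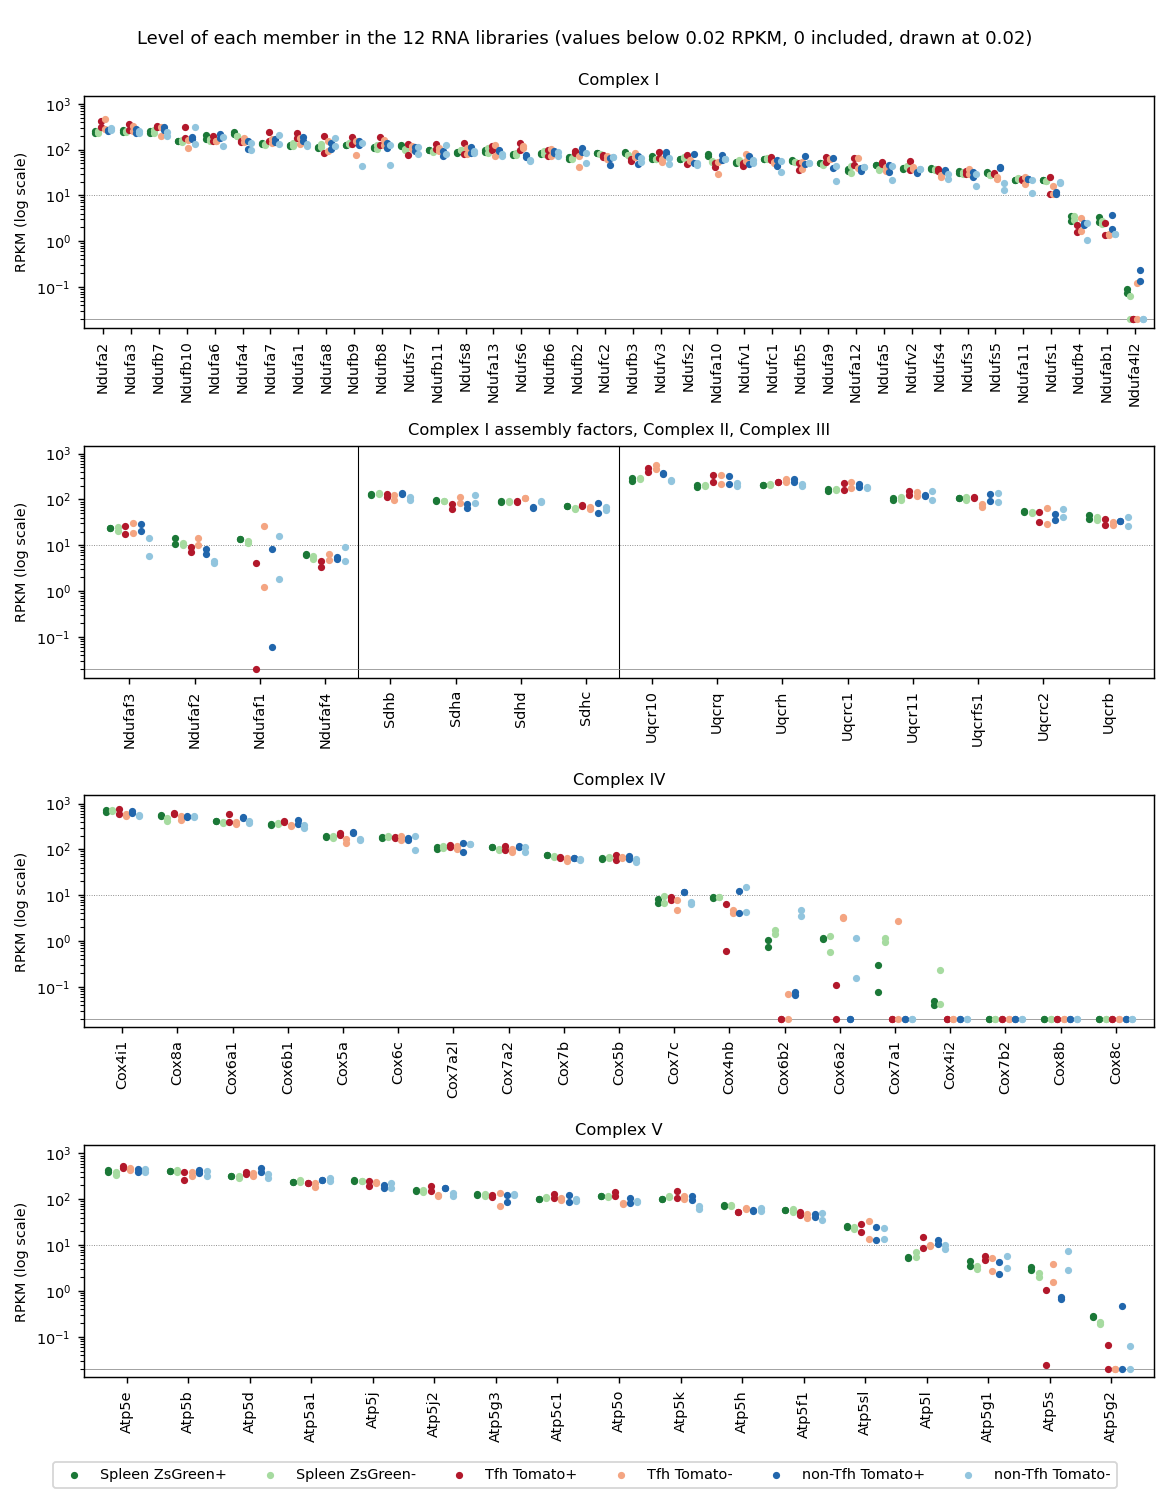
RPKM (log scale) of each of the 90 members in the 12 libraries, by complex and in order of mean level, with 2 points per group. Most members lie between 10 and 775 RPKM in all groups, and the members that fall below the dotted line at 10 RPKM include assembly factors, alternative isoforms, subunits such as Cox7c and Atp5l, and Cox4nb and Atp5s.

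By complex, the members of complex I summed to 3229 to 3540 RPKM in spleen libraries and 3059 to 4524 RPKM in lymph node libraries. Complex III summed to 1107 to 1177 RPKM in the spleen and 1132 to 1669 RPKM in the lymph node. Complex IV summed to 2605 to 2800 RPKM in the spleen and 2347 to 3159 RPKM in the lymph node, and complex V to 2296 to 2451 RPKM in the spleen and 2183 to 2481 RPKM in the lymph node. Complex II, with the 4 succinate dehydrogenase genes, summed to 375 to 393 RPKM in the spleen and 329 to 414 RPKM in the lymph node. The spleen and lymph node libraries come from different strains and experiments, so their levels stand side by side without a test. The order of the members was much the same in both: across the 83 members with an overall mean of at least 1 RPKM, the mean spleen RPKM and the mean lymph node RPKM had a Spearman rho of 0.99, a description across genes that are not independent replicates and share transcript length. The rho of mean RPKM with transcript length was -0.32.

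Within complex I the highest members were the accessory subunits Ndufa2 and Ndufa3. Ndufa2 stood at 233 and 251 RPKM in spleen ZsGreen+ and 255 and 234 in spleen ZsGreen-. It reached 428 and 313 RPKM in Tfh Tomato+ and 463 and 284 in Tfh Tomato-, with 256 and 273 RPKM in non-Tfh Tomato+ and 265 and 290 in non-Tfh Tomato-. Ndufs1, which encodes the largest core subunit of complex I, was the lowest complex I member among those at or above 10 RPKM in every library, at 20.2 to 21.4 RPKM in the spleen and 10.5 to 25.3 RPKM in the lymph node. The 4 complex II genes lay close together. In the spleen, the iron-sulfur subunit gene Sdhb had 127 and 130 RPKM in ZsGreen+ and 140 and 131 in ZsGreen- libraries, and the membrane anchor gene Sdhc had 71 and 70.7 in ZsGreen+ and 61.6 and 63.9 in ZsGreen- libraries. Uqcr10, a small subunit of complex III, was the highest of that complex at 255 to 558 RPKM over the 12 libraries. Atp5e, the epsilon subunit, and Atp5b, the catalytic beta subunit, led complex V at 333 to 541 and 258 to 431 RPKM.

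Subunits VIa and VIb of complex IV were almost wholly of the general isoform. Cox6a1 held at least 99.1% of the summed RPKM of Cox6a1 and Cox6a2 in every library, and Cox6b1 at least 98.6% of those of Cox6b1 and Cox6b2. No read of Cox7b2, Cox8b or Cox8c was counted in any of the 12 libraries, and Cox4i2 had at most 5 reads. Of the summed RPKM of Cox7a1, Cox7a2 and Cox7a2l, which are grouped by name, the general subunit gene Cox7a2 held 40.5% to 56.3% and the related Cox7a2l 43.7% to 59.5%. Among the 3 genes for the same mature subunit c of ATP synthase, Atp5g3 held 93.1% to 98.1%. Ndufa4l2, a paralog of Ndufa4 known for its induction under hypoxia, had at most 6 reads. Some general subunits were listed low, among them Ndufab1 (the mitochondrial acyl carrier protein), Ndufb4, Cox7c, Atp5l, Atp5g1 and Atp5g2. Ndufab1, Cox7c and Atp5l have named pseudogenes in the RefSeq gene table, as do the well expressed Uqcrh, Atp5k, Atp5c1, Cox5b, Ndufa12 and Ndufs5. The sources used here do not say how the authors' counting treated reads shared with such copies. These levels, and the share of Atp5g3 among its 3 genes, are therefore uncertain. Gapdh and Pgam1, which are in the glycolysis list below, were also listed low, at 0.917 to 4.05 and 1.19 to 2.11 RPKM. The cause of the low levels was not tested.

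The first comparison asks whether cells expressing T-bet at the time of the sort differ from cells that only carry its lasting mark. In the spleen, 3 members were higher in ZsGreen+ than in ZsGreen- cells and none was lower (edgeR quasi-likelihood test, Benjamini-Hochberg adjusted p below 0.05 over all genes, 84 members tested). All 3 encode complex I subunits, and by name 37 of the 84 tested members belong to complex I. Over all genes tested, 23.8% passed, 11.4% higher and 12.4% lower. At an unadjusted p below 0.05, 8 of the 84 members passed, 5 higher and 3 lower, against 35.1% of all genes. The RPKM of the groups did not overlap for 25 members that were higher (35.8% of all genes) and 14 that were lower (26.9%). The median log2 fold change was -0.004 over the members and 0.004 over all genes, and the median absolute log2 fold change was 0.083 over the members and 0.221 over all genes. Among genes with a mean of at least 50 RPKM, 2 of 58 members passed, against 33.1% of all such genes.

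Ndufa10, an accessory subunit of complex I, showed the largest rise of the 3. It had 72.3 and 78.5 RPKM in ZsGreen+ libraries, against 54.8 and 57.2 RPKM in ZsGreen- libraries. The groups did not overlap, and the log2 fold change was 0.39 ± 0.08 (SE; edgeR, adjusted p = 0.00598). Ndufs7, a core subunit that carries the last iron-sulfur cluster before ubiquinone, had 119 and 127 RPKM in ZsGreen+ and 99.2 and 101 RPKM in ZsGreen- libraries. Its log2 fold change was 0.26 ± 0.08 (edgeR, adjusted p = 0.036). Ndufa5, an accessory subunit of the arm that reaches into the matrix, had 46.5 and 46.9 RPKM in ZsGreen+ and 37.5 and 35.9 RPKM in ZsGreen- libraries, a log2 fold change of 0.31 ± 0.10 (edgeR, adjusted p = 0.0451). For Ndufs7 and Ndufa5 too, both ZsGreen+ libraries lay above both ZsGreen- libraries. Ndufa10 passed in each of the 11 alternative settings tried in the spleen, whereas Ndufs7 and Ndufa5 did not pass with DESeq2 (adjusted p = 0.0558 and 0.145), nor without ZsGreen+ replicate 1 (0.0785 and 0.17), ZsGreen+ replicate 2 (0.218 and 0.138) or ZsGreen- replicate 1 (0.0957 and 0.09). Ndufa5 also missed the threshold without ZsGreen- replicate 2 (edgeR, adjusted p = 0.112) and with all transcript rows summed (edgeR, adjusted p = 0.0586).

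**Figure D2:**
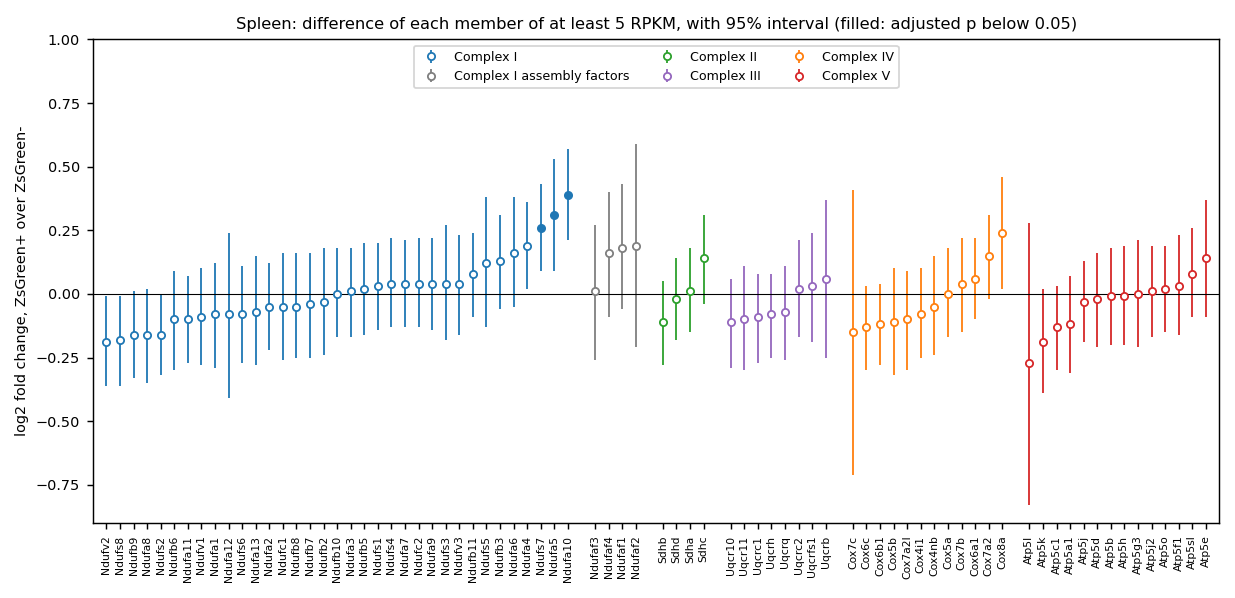
Log2 fold change of ZsGreen+ over ZsGreen- spleen cells for the 77 members whose higher group had a mean of 5 RPKM or more, ordered within each complex, with 95% intervals; filled points passed the test. The 3 filled points are Ndufs7, Ndufa5 and Ndufa10 of complex I, and the other members lie within 0.3 of no change.

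The promoters of the 3 genes that rose are shown beside those of Cox6a1 and Cox8a, which are among the highest members. No stated rule chose these 2. Each is the RefSeq window from 250 bases before to 50 after the gene start, on build GRCm38.p6, written 5′ to 3′ on the gene's strand. Positions are Ndufa10 chr1:92473709-92474008, minus strand; Ndufa5 chr6:24527477-24527776, minus strand; Ndufs7 chr10:80249199-80249498, plus strand; Cox6a1 chr5:115348909-115349208, minus strand; and Cox8a chr19:7217567-7217866, minus strand. Capitals mark matches, on either strand, to the core letters of 3 factors known for binding promoters of respiratory genes: GCATGCGC for NRF1, AAGATGGC for YY1 and CCGGAAGT for ETS factors such as GABP.
Ndufa10: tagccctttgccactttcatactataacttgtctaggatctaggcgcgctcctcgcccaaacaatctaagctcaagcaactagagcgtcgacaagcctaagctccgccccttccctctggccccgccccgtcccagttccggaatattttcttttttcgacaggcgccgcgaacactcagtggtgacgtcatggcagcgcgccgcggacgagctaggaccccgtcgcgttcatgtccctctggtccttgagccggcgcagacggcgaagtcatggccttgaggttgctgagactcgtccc
Ndufa5: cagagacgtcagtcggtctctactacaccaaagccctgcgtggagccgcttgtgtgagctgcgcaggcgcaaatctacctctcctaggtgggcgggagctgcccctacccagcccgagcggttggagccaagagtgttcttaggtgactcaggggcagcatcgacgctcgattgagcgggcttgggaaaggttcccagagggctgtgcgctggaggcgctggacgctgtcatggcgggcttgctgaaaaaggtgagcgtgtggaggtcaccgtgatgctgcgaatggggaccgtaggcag
Ndufs7: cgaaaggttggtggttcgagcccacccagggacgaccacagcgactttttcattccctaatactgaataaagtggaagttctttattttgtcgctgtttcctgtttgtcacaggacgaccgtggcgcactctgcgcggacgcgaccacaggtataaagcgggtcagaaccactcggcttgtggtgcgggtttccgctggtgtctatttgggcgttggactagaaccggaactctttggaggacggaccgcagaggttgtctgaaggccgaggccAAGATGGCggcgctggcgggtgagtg
Cox6a1: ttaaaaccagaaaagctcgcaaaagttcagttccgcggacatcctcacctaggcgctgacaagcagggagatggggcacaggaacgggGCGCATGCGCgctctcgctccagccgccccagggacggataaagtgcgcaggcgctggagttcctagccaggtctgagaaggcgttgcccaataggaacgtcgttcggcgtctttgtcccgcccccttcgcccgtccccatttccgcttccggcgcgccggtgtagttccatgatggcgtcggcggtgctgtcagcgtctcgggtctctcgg
Cox8a: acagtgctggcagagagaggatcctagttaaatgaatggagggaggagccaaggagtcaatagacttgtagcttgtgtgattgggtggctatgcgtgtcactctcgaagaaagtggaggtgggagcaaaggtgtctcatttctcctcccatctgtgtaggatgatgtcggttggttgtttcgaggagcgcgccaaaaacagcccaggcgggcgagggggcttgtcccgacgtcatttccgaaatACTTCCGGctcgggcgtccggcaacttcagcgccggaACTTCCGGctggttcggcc
The Ndufs7 window held the YY1 core starting at base 25 after the gene start, Cox6a1 held the NRF1 core on both strands in a single overlapping palindrome, and Cox8a held the ETS core at 2 places. The windows of Ndufa10 and Ndufa5 held none of these letters. Among the 10 members with the highest mean RPKM, only Cox6a1, Cox8a and Ndufa3 had a window with any of the 3 cores. The 2 shown therefore do not stand for the highest members. Of the 90 members, 74 had promoters in the table, 80 windows in all. The NRF1 core was in 13.8% of them (2.71% of all 32851 promoters), the YY1 core in 15% (2.75%), the ETS core in 6.25% (3.89%), and at least 1 of the 3 in 33.8% (8.83%). CCAAT was in 43.8% (37.4%) and TATAAA in 10% (13.6%). The YY1 core was in windows of complex I (Ndufa3, Ndufa9, Ndufb8, Ndufc1, Ndufs4, Ndufs6 and Ndufs7) and complex V (Atp5f1, Atp5j, Atp5j2 and Atp5sl), and in none of the 3, 5 and 13 windows of complexes II, III and IV. A match is a description of these letters and not evidence of binding. Atp5g2, whose listed level of no more than 0.461 RPKM is uncertain as said above, also held the NRF1 core.

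Other core subunits of complex I did not pass. Ndufs8 had 82.6 and 90.6 RPKM in ZsGreen+ and 95.5 and 96.1 RPKM in ZsGreen- libraries (log2 fold change -0.18 ± 0.08; edgeR, adjusted p = 0.121), and Ndufv2 had 39.2 and 37.3 RPKM in ZsGreen+ and 43.3 and 41.4 RPKM in ZsGreen- libraries (-0.19 ± 0.08; edgeR, adjusted p = 0.129), the most negative value of complex I. In both genes the ZsGreen+ libraries lay below the ZsGreen- libraries. Over complex I, 37 members were tested, with a median log2 fold change of 0.002 and a range of -0.19 to 0.39. The 4 assembly factors ranged from 0.01 (Ndufaf3) to 0.19 (Ndufaf2).

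Complexes II, III, IV and V had no member that passed in the spleen. In complex II, Sdha (the flavoprotein subunit) and Sdhd (a membrane anchor) had log2 fold changes of 0.01 ± 0.07 and -0.02 ± 0.07, while Sdhc stood at 0.14 ± 0.08 and Sdhb at -0.11. The 8 complex III members ranged from -0.11 (Uqcr10) to 0.06 (Uqcrb). In complex IV, Cox8a had 533 and 558 RPKM in ZsGreen+ and 412 and 488 RPKM in ZsGreen- libraries. The groups did not overlap, but the log2 fold change of 0.24 ± 0.10 did not pass (edgeR, adjusted p = 0.107). It passed without the low-count filter (adjusted p = 0.0276) and without ZsGreen- replicate 2 (adjusted p = 0.0033). The most negative member of complex IV at or above 5 RPKM was Cox7c, at -0.15. In complex V, values at or above 5 RPKM ran from -0.27 (Atp5l) to 0.14 (Atp5e). Of the 84 members, 81 had a 95% interval of the log2 fold change within ±1 and 72 within ±0.5, so for these 81 members the interval did not reach a 2-fold difference.

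The largest fitted difference of a member in the spleen rested on few reads. Cox7a1, the heart and muscle form of subunit VIIa, had 0.0784 and 0.299 RPKM in ZsGreen+ libraries (1 and 3 reads) and 1.19 and 0.938 RPKM in ZsGreen- libraries (13 and 11 reads). Its log2 fold change was -2.55 ± 0.84 (edgeR, adjusted p = 0.0553). Of the other members, 6 were below the filter on low counts in the spleen (Ndufa4l2, Cox4i2, Cox7b2, Cox8b, Cox8c and Atp5g2), with at most 6 reads in any spleen library.

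Of 8 tested genes of the pathway that the name rule does not reach, 2 fell in ZsGreen+ cells and none rose, a share near the 23.8% of all genes that passed. Atpif1, which encodes the inhibitor protein of ATP synthase, had 73.2 and 84.4 RPKM in ZsGreen+ and 131 and 124 RPKM in ZsGreen- libraries (log2 fold change -0.73 ± 0.09; edgeR, adjusted p = 0.000252). Slc25a4, which encodes a carrier that exchanges ADP for ATP across the inner membrane, had 99 and 97.6 RPKM in ZsGreen+ and 168 and 161 RPKM in ZsGreen- libraries (-0.78 ± 0.07; edgeR, adjusted p = 4.90e-05). Both genes were lower in every ZsGreen+ library than in every ZsGreen- library, while the 16 tested complex V members had a median log2 fold change of -0.004.

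Of 27 tested assembly factors outside the rule, 3 rose and none fell, where 11.4% of all genes passed as higher and 23.8% in either direction. The list median was 0.212. Cox10, the enzyme that makes heme O for cytochrome c oxidase, had 19.1 and 22 RPKM in ZsGreen+ and 11.8 and 10.7 RPKM in ZsGreen- libraries (0.83 ± 0.09; edgeR, adjusted p = 0.00016). Sdhaf1, an assembly factor of succinate dehydrogenase, had 48.4 and 49.8 RPKM in ZsGreen+ and 35.7 and 35.1 RPKM in ZsGreen- libraries (0.43 ± 0.08; edgeR, adjusted p = 0.004). Atpaf2, an assembly factor of ATP synthase, had 20.5 and 22.5 RPKM in ZsGreen+ and 16.8 and 16.8 RPKM in ZsGreen- libraries (0.32 ± 0.09; edgeR, adjusted p = 0.029). No member of complexes II, IV and V, which these factors help to build, passed the test.

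**Figure D3:**
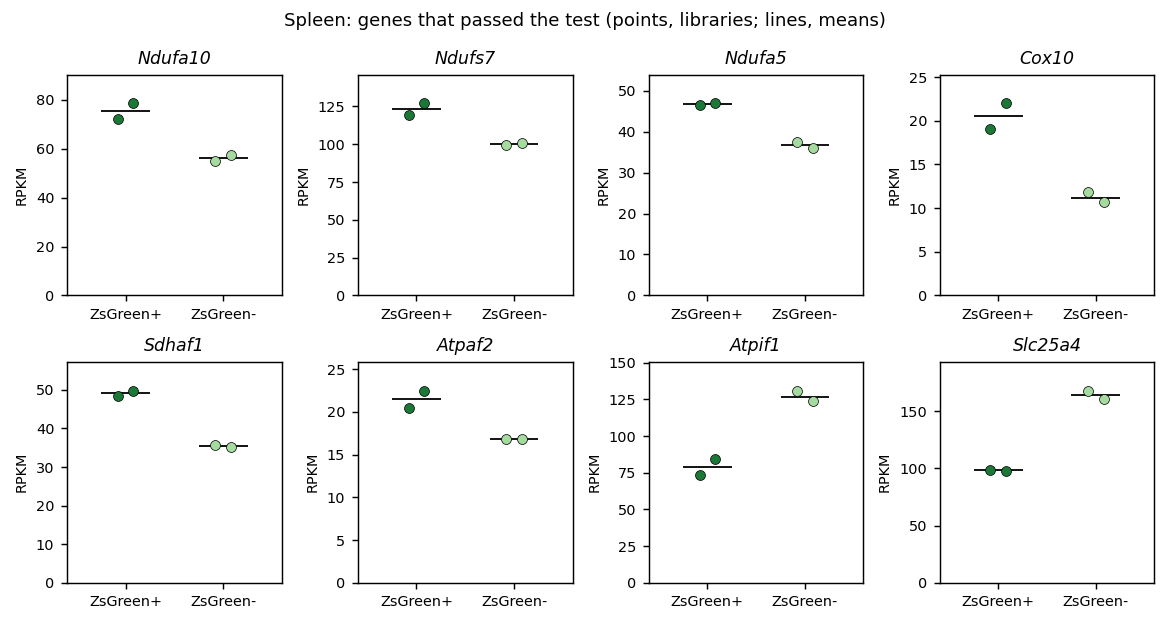
RPKM of 8 genes in the spleen libraries, ZsGreen+ left of ZsGreen-, with 2 libraries as points and their mean as a line. In each panel the 2 groups are apart: Atpif1 and Slc25a4 are lower in ZsGreen+ cells, and the 3 complex I subunits and 3 assembly factors are higher.

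Among 12 tested regulators of mitochondrial biogenesis, Myc rose (57.5 and 55.1 RPKM in ZsGreen+ against 37.2 and 32.4 RPKM in ZsGreen- libraries; log2 fold change 0.66 ± 0.08; edgeR, adjusted p = 0.000378) and no other regulator passed. Of 75 mitochondrial ribosomal protein genes 1 rose (Mrpl44) and 4 fell (Mrpl54, Mrpl33, Mrpl43 and Mrps6), and of 85 cytosolic ribosomal protein genes 1 rose (Rpl14). Of 17 glycolysis genes, Aldoa and Slc2a3, an enzyme and a glucose transporter, rose, and Aldoc and Ldha fell. The medians were 0.068 for the regulators, 0.023 and 0.128 for the mitochondrial and cytosolic ribosomal proteins and -0.052 for glycolysis. Each of these lists was read against the same 23.8% of all genes. Marker levels differed between the spleen groups as well. NK markers (4 genes) summed to 90.2 to 100 RPKM in ZsGreen+ and 8.9 to 10.8 RPKM in ZsGreen- libraries, and macrophage and monocyte markers (8 genes) to 375 to 463 RPKM in ZsGreen+ and 294 to 326 RPKM in ZsGreen- libraries. Neutrophil markers summed to 1106 to 1168 RPKM in ZsGreen+ and 757 to 1022 RPKM in ZsGreen- libraries, and CD4 T cell markers to 2305 to 2368 RPKM in ZsGreen+ and 2818 to 2884 RPKM in ZsGreen- libraries. All of these markers had reads in both groups, and their part in the differences above was not tested.

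In the lymph node the comparisons ask how cells with a T-bet history differ from cells without it, within Tfh and within non-Tfh, and how Tfh differ from non-Tfh. None of the 83 tested members passed in any of the 5 contrasts (edgeR; Tomato+ against Tomato- in Tfh, the same in non-Tfh, Tfh against non-Tfh among Tomato+ and among Tomato-, and the interaction). The share of all genes that passed was 0.111%, 0.332%, 0.0766%, 0.179% and 0% in that order, so few genes of any kind passed. At an unadjusted p below 0.05 the members numbered 0, 1, 0, 3 and 1, against 5.83%, 8.94%, 8.19%, 9.02% and 6.35% of all genes. DESeq2 and limma on log2(RPKM + 1) each called 1 member, Uqcr10 among Tomato- cells, and none in the other contrasts. These fits had little power over genes in general. In counts simulated from the lymph node libraries, none of the 100 genes changed by 2-fold and 15% of the 100 changed by 4-fold were recovered. The spleen fit recovered 97.0% of 2-fold changes. The changed genes were drawn from all tested genes above a floor on mean reads, so these shares are not the power for the members. The median standard error of a member's log2 fold change in a Tomato comparison was 0.38, and the 95% interval lay within ±1 for 33 members in Tfh and 28 in non-Tfh. A member that did not pass is therefore not shown to be alike in the groups.

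Marker levels differed with Tomato in the lymph node, and bulk RNA does not show which cells held these transcripts. Macrophage and monocyte markers (8 of 8 detected) summed to 309 and 255 RPKM in Tfh Tomato+ and 767 and 964 RPKM in Tfh Tomato- libraries. In non-Tfh they summed to 153 and 95.5 RPKM in Tomato+ and 1104 and 1075 RPKM in Tomato- libraries. No marker of this list was at 0 in both libraries of a group. Of the neutrophil markers, Mpo and Elane were at 0 in all 4 groups, but others had reads. S100a8 stood at 9.69 and 300 RPKM in Tfh Tomato- and 0.945 and 263 RPKM in non-Tfh Tomato- libraries. In Tomato+ libraries S100a8 stood at 0.658 and 1.86 RPKM in Tfh and 68.3 and 0.666 RPKM in non-Tfh. NK markers (4 genes) summed to 41.4 to 54.1 RPKM in Tfh Tomato+ and 9.31 to 17.8 in Tfh Tomato- libraries, and to 81.1 to 91.2 RPKM in non-Tfh Tomato+ and 8.11 to 17.4 in non-Tfh Tomato- libraries. Among all the lists, the markers Lyz2 (-3.43 ± 0.27; edgeR, adjusted p = 0.00381) and Klrk1 (3.53 ± 0.52; edgeR, adjusted p = 0.0389) passed in non-Tfh, and no other gene of these lists passed in a lymph node contrast. The part of these markers in the values that follow was not tested.

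Among Tfh, 55 of the 83 members had higher and 28 lower fitted levels in Tomato+ than in Tomato- cells. The median log2 fold change was 0.118 over the members and 0.010 over all genes. Leaving out Tfh Tomato+ replicate 1 brought the members' median to -0.015, so the sign of this median rests on that library, and leaving out both Tomato- replicate 2 libraries brought it to 0.044. Among non-Tfh, 58 members were higher and 25 lower in Tomato+ cells, with a median of 0.155 against 0.000 over all genes, and of 0.238 without both Tomato- replicate 2 libraries. The non-Tfh median was 0.093 without non-Tfh Tomato+ replicate 2 and 0.238 without non-Tfh Tomato- replicate 2. The Tomato+ libraries lay above the Tomato- libraries without overlap for 19 members in Tfh (18.4% of all genes) and 25 in non-Tfh (19%), and below them for 10 members in Tfh (16.5%) and 9 in non-Tfh (18.8%). With Tfh and non-Tfh read together, 42 of the 83 members (50.6%) were higher with Tomato in both and 12 (14.5%) lower in both, where all genes gave 27.6% and 26.9%. Among genes of at least 50 RPKM the members gave 55.2% higher and 8.62% lower in both, and all genes 40.7% and 22.7%. In both populations at once, 10 members (12%) lay above without overlap, against 5.43% of all genes, and 4 (4.82%) below, against 4.23%. This share was not computed for genes of at least 50 RPKM. Those above were Ndufa1, Ndufb2, Ndufb7, Ndufs4, Ndufs5, Ndufv3, Cox5a, Cox6a1, Cox6b1 and Atp5j2. Those below were Sdha, Sdhd, Cox6a2 and Atp5s. The joint counts use the same libraries as the medians, Tfh Tomato+ replicate 1 among them, and were not repeated without it. Members can vary together within a library, so they are not independent observations of a Tomato difference.

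**Figure D4:**
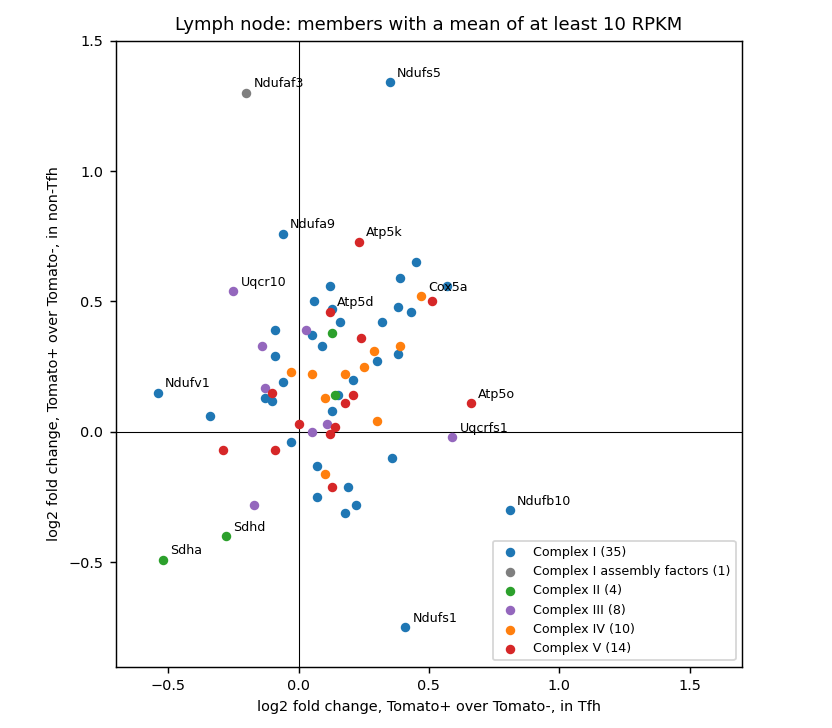
Log2 fold change of Tomato+ over Tomato- in Tfh (horizontal) and in non-Tfh (vertical) for the 72 members with a mean of at least 10 RPKM in the lymph node, coloured by complex. More points lie right of and above 0 than in any other corner, Sdha and Sdhd lie left of and below 0, and no point passed the test.

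Cox5a, a matrix-side subunit of cytochrome c oxidase, was one of the 10 members above without overlap in both. It had 207 and 226 RPKM in Tfh Tomato+ and 169 and 139 RPKM in Tfh Tomato- libraries (log2 fold change 0.47 ± 0.23; edgeR, adjusted p = 0.833). In non-Tfh it had 242 and 226 RPKM in Tomato+ and 169 and 164 RPKM in Tomato- libraries (0.52 ± 0.23; edgeR, adjusted p = 0.573). Neither difference passed. In the spleen the same gene had 190 and 196 RPKM in ZsGreen+ and 181 and 195 RPKM in ZsGreen- libraries.

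Sdha and Sdhd had the opposite order. Sdha had 62.2 and 78.6 RPKM in Tfh Tomato+ and 115 and 83.9 RPKM in Tfh Tomato- libraries (-0.52 ± 0.27; edgeR, adjusted p = 0.837), and 81 and 64.9 RPKM in non-Tfh Tomato+ and 85.8 and 123 RPKM in non-Tfh Tomato- libraries (-0.49 ± 0.27; edgeR, adjusted p = 0.635). Sdhd had 91.3 and 86.9 RPKM in Tfh Tomato+ and 105 and 109 RPKM in Tfh Tomato- libraries (-0.28 ± 0.24), and 67.6 and 66.4 RPKM in non-Tfh Tomato+ and 87.5 and 92.6 RPKM in non-Tfh Tomato- libraries (-0.40 ± 0.24). Each Tomato+ library lay below each Tomato- library of its population in both genes. The other complex II genes did not share this order: Sdhb stood at 0.13 in Tfh and 0.38 in non-Tfh, and Sdhc at 0.14 in both.

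The most negative fitted values belonged to members of low level, Cox6a2 in both Tfh (-5.67 ± 2.89) and non-Tfh (-6.49 ± 3.02). The most positive ones also came with wide errors. Ndufb10, a complex I accessory subunit with the most positive value in Tfh, had 311 and 175 RPKM in Tomato+ and 165 and 110 RPKM in Tomato- libraries (0.81 ± 0.46). In non-Tfh it had 174 and 185 RPKM in Tomato+ and 135 and 315 RPKM in Tomato- libraries (-0.30 ± 0.46). Ndufs5, a small complex I subunit with the most positive value in non-Tfh, had 40.7 and 38.8 RPKM in Tomato+ and 18.9 and 13.2 RPKM in Tomato- libraries (1.34 ± 0.85; edgeR, adjusted p = 0.684). In Tfh it had 29.8 and 30.9 RPKM in Tomato+ and 22.5 and 24.6 RPKM in Tomato- libraries (0.35 ± 0.84). In complex V, Atp5o, which encodes the stalk subunit OSCP, had 142 and 117 RPKM in Tfh Tomato+ and 80.8 and 81.6 RPKM in Tfh Tomato- libraries (0.66 ± 0.31; edgeR, adjusted p = 0.833), and 84.9 and 106 RPKM in non-Tfh Tomato+ and 88.6 and 92 RPKM in non-Tfh Tomato- libraries.

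The 3 members that rose in the spleen did not pass in the lymph node. Ndufa10 had 42.2 and 50.2 RPKM in Tfh Tomato+ and 29.4 and 52.9 RPKM in Tfh Tomato- libraries, and 59.6 and 74.3 RPKM in non-Tfh Tomato+ and 62.8 and 61.4 RPKM in non-Tfh Tomato- libraries. The log2 fold changes were 0.15 ± 0.38 and 0.14 ± 0.38, with 95% intervals of -0.71 to 1.02 and -0.72 to 1.01 that include the spleen value. Ndufs7 stood at -0.10 ± 0.37 in Tfh and 0.12 ± 0.37 in non-Tfh, and Ndufa5 at 0.38 ± 0.68 and 0.30 ± 0.68. Of the 3, only Ndufa5 in Tfh had Tomato+ libraries above both Tomato- libraries (47.3 and 53.8 RPKM in Tomato+, 41.7 and 34.9 RPKM in Tomato-). The spleen difference is between cells with present T-bet expression and cells that only carry its mark. The lymph node difference is between cells with and without a T-bet history. These are unlike comparisons and were not tested against each other.

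The members' median log2 fold change of Tfh over non-Tfh was -0.033 among Tomato+ and 0.028 among Tomato- cells, beside 0.000 and 0.001 over all genes. The sign of both medians depended on single libraries: the Tomato+ median was 0.090 without Tfh Tomato+ replicate 2 and 0.022 without non-Tfh Tomato+ replicate 2, and the Tomato- median was -0.007 without Tfh Tomato- replicate 1 and -0.011 without non-Tfh Tomato- replicate 1. The Tomato- median was 0.140 without non-Tfh Tomato- replicate 2 and 0.227 without both Tomato- replicate 2 libraries. Cytosolic ribosomal protein genes (84 tested) had medians of -0.439 and -0.486 in the same contrasts, and glycolysis genes (17 tested) 0.244 and 0.536, and no gene of either list passed. The Tfh libraries lay above the non-Tfh libraries without overlap for 15 members among Tomato+ (22.3% of all genes) and 18 among Tomato- cells (20%), and below them for 9 (17%) and 7 (17%). Uqcr10 had the smallest p of the members among Tomato- cells, although Cox6a2, Ndufaf2 and Ndufaf3 had larger positive values there and Cox6b2, Cox4nb and Atp5s larger negative ones, each with a wider error. Uqcr10 had 474 and 397 RPKM in Tfh Tomato+ and 385 and 356 RPKM in non-Tfh Tomato+ libraries, and 558 and 470 RPKM in Tfh Tomato- and 265 and 255 RPKM in non-Tfh Tomato- libraries. All Tfh libraries lay above all non-Tfh libraries, and the non-Tfh Tomato- libraries were the lowest. Among Tomato- cells the log2 fold change was 0.93 ± 0.22 (edgeR, adjusted p = 0.224; DESeq2, adjusted p = 0.00507; limma on log2(RPKM + 1), adjusted p = 0.0488; limma on log2(RPKM + 0.1), adjusted p = 0.0629). Among Tomato+ cells it was 0.15 ± 0.22, and the interaction, the Tomato difference in Tfh minus that in non-Tfh, was -0.79 ± 0.31 (edgeR, unadjusted p = 0.0341, adjusted p = 0.774).

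Ndufs6, which encodes a zinc-binding subunit of complex I, had 138 and 98.7 RPKM in Tfh Tomato+ and 76.8 and 70.5 RPKM in non-Tfh Tomato+ libraries, and 119 and 107 RPKM in Tfh Tomato- and 56.3 and 59.8 RPKM in non-Tfh Tomato- libraries. Its log2 fold changes of 0.60 ± 0.38 and 0.92 ± 0.38 did not pass (edgeR, adjusted p = 0.758 and 0.524). Ndufa10 was lower in Tfh, at -0.63 ± 0.38 among Tomato+ and -0.65 ± 0.38 among Tomato- cells (edgeR, adjusted p = 0.733 and 0.653). Atp5a1, the alpha subunit of ATP synthase, had 229 and 224 RPKM in Tfh Tomato+ and 258 and 257 RPKM in non-Tfh Tomato+ libraries, and 183 and 229 RPKM in Tfh Tomato- and 245 and 284 RPKM in non-Tfh Tomato- libraries (-0.28 ± 0.18 and -0.41 ± 0.18; edgeR, adjusted p = 0.758 and 0.543). For these 3 genes the Tfh and non-Tfh libraries did not overlap within either Tomato class. Other members also separated within both classes, among them Uqcr10 and Sdhd, which were higher in Tfh. Ndufs6 and Atp5a1 were chosen after their values were seen. The share of all genes that separate within both classes was not computed, so this order is not shown to be particular to these genes.

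**Figure D5:**
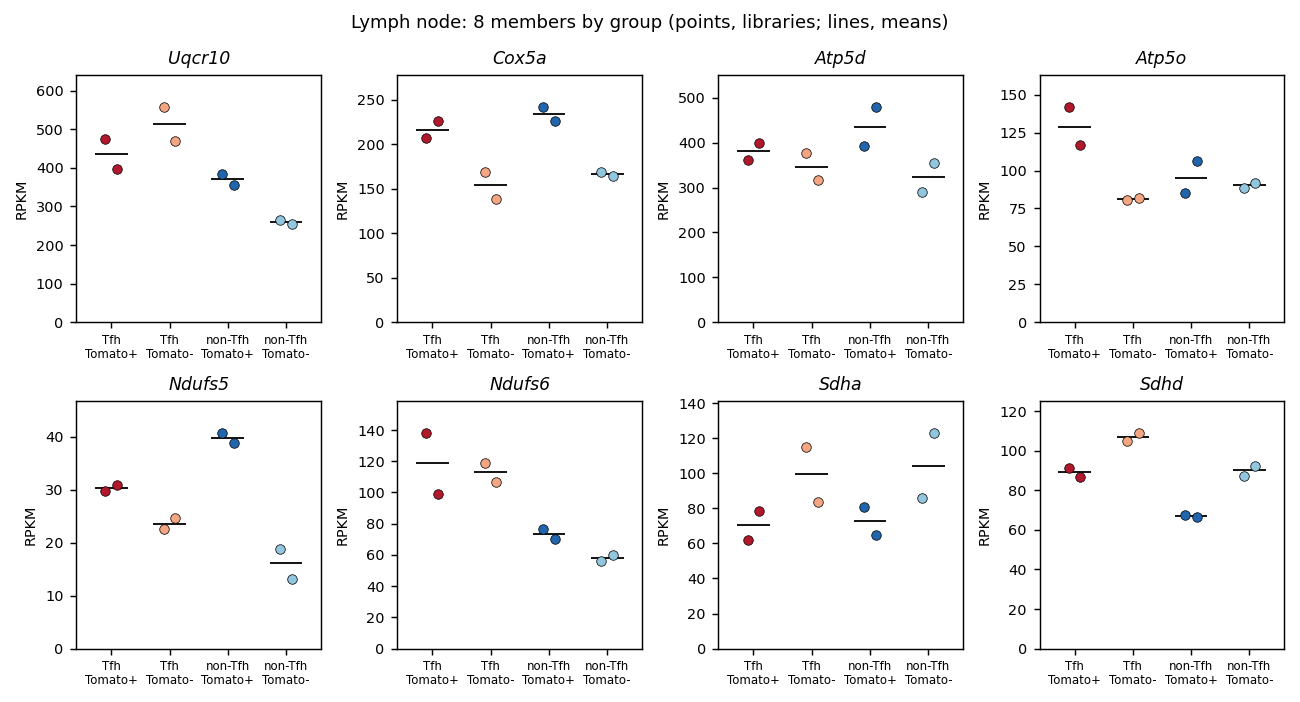
RPKM of 8 members in the lymph node, Tomato+ left of Tomato- within Tfh and then within non-Tfh, with 2 libraries as points and their mean as a line. Uqcr10 and Ndufs6 are higher in Tfh, Cox5a is higher and Sdha and Sdhd are lower in Tomato+ cells of both populations, and none passed the edgeR test.

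The rare isoforms and low members varied most. Cox6a2 had 2 and 0 reads in Tfh Tomato+ and 66 and 53 reads in Tfh Tomato- libraries, and 0 and 0 reads in non-Tfh Tomato+ against 19 and 2 reads in non-Tfh Tomato- libraries. Cox6b2 had 65 and 37 reads in non-Tfh Tomato- libraries and at most 1 read in each of the other 6 lymph node libraries. The Cox6a2 level was 3.43 and 3.13 RPKM in Tfh Tomato- libraries, beside 362 and 391 RPKM of Cox6a1. Neither isoform passed the test in any contrast. The assembly factor Ndufaf1 was uneven between replicates in the lymph node, with 0 and 136 reads in Tfh Tomato+, 1107 and 45 in Tfh Tomato-, 2 and 330 in non-Tfh Tomato+, and 64 and 444 in non-Tfh Tomato- libraries, while its spleen libraries held 519 to 677 reads. For members of at least 10 RPKM in both replicates, the median fold between replicates was 1.05 to 1.07 in the spleen groups and 1.18 to 1.25 in the lymph node groups.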

How the data were processed

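RNA from 12 libraries in 6 groups was used; groups were taken from the sample titles. The deposited tables hold read counts (whole numbers) and RPKM by the authors, 1 row per RefSeq transcript. Only the 4 spleen tables have headers. The 8 lymph node tables have none and were read in the same column order, which was checked by dividing reads by length and comparing with RPKM. The spleen headers name Count and Size the wrong way round, so the deposited column headed Size was read as counts, since its ratio to the length column tracks RPKM. The submitters' processing notes list CASAVA 2.18, Bowtie2, SICER 1.1, edgeR and build mm9, without saying which step each served. DNase libraries were not analysed here.

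For each symbol the row with the most reads was kept (29257 rows, 22878 symbols; 7 members had more than 1 row). Counts of all genes were tested in R 4.3.3 with edgeR 4.0.16 (filterByExpr, TMM, quasi-likelihood). Spleen (4 libraries) and lymph node (8 libraries) were fitted separately, and calls were made at a Benjamini-Hochberg adjusted p of 0.05. The error of a log2 fold change is its absolute value over the square root of F. For genes near 0 reads it depends on the prior count. Levels are the authors' RPKM, and intervals are 95%. Alternatives were DESeq2 1.42.0, limma 3.58.1 on log2(RPKM + 1) or log2(RPKM + 0.1) for genes of at least 1 RPKM in 2 libraries, median-of-ratios factors, no filter, summed rows, a replicate block and left-out libraries. The test was tried on simulated data with 200 changed genes, 100 of them at each fold.

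Members, gene lists, tests and alternatives were chosen with earlier results of these data known. Members named in a comparison were those that passed, the highest of each complex, the largest changes of each complex at or above 5 RPKM, Sdha to Sdhd and the isoform families. Other named members (Ndufa3, Ndufs1, Ndufs6, Ndufs8 and others) were chosen after their values were seen. Lists were 8 pathway genes outside the rule, assembly factors, biogenesis regulators, mitochondrial and cytosolic ribosomal proteins, glycolysis, and markers of CD4 T cells, B cells, macrophages, neutrophils, erythroid and NK cells. B cell markers (6 genes) summed to 100 to 143 RPKM in all libraries, and erythroid markers (6 genes) to 180 to 219 RPKM in the spleen and at most 22.6 RPKM in the lymph node. Protein sequences were not used here.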

Additional observations from a re-analysis of the deposited data

How the results depend on the processing

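In the spleen, the count of 3 members called in ZsGreen+ against ZsGreen- cells was 1 with DESeq2 and 1 to 4 when a library was left out (4 without ZsGreen- replicate 2). It was 3 with median-of-ratios factors and with both limma fits, 4 without the filter and 2 with rows summed. The members' median of -0.004 became 0.038 and 0.039 with limma at the pseudocounts 1 and 0.1, and lay between -0.018 and -0.005 with a library left out, so its sign is not settled.

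In the lymph node, counts of 0 stayed 0 in every contrast and alternative except Tfh against non-Tfh among Tomato- cells, where DESeq2 and limma on log2(RPKM + 1) gave 1 (Uqcr10). With single libraries left out, the members' median ran between -0.015 and 0.226 for Tomato in Tfh, between 0.093 and 0.238 in non-Tfh, between -0.110 and 0.090 for Tfh against non-Tfh among Tomato+, between -0.011 and 0.140 among Tomato-, and between -0.207 and -0.021 for the interaction. The non-Tfh median of 0.155 was 0.126 with median-of-ratios factors, 0.132 with DESeq2, 0.131 and 0.132 with limma, and 0.238 without both Tomato- replicate 2 libraries. Without those libraries the median was 0.227 among Tomato- cells and -0.180 for the interaction. The cause of these shifts was not tested.

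Whether the replicate numbers pair the samples is not settled. Same-numbered libraries had correlations of deviations between -0.012 and 0.033 over 10522 genes. The spread of single genes can hide an effect on few genes, so this cannot decide it. Neutrophil markers summed to 449 and 341 RPKM in Tfh and non-Tfh Tomato- replicate 2, and to 10.1 and 4.05 RPKM in replicate 1. In Tomato+ libraries, replicates 1 and 2 held 1.31 and 2.59 RPKM in Tfh and 79.6 and 0.754 RPKM in non-Tfh. With the replicate number as a block the spleen count was 3 and its median -0.003. Of 2179 values of named members under alternatives, 10 lost and 5 gained the call and none of the called ones turned sign. Most of these values could not lose a call, since only 3 members, in the spleen, were called. All 10 losses were of Ndufs7 and Ndufa5, within the 11 spleen alternatives. The effect of depth on precision was not tested.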
